A study of Mus musculus with 6 samples.

Results

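YAP and TAZ are the transcriptional coactivators at the end of the Hippo pathway, the TEAD proteins are the DNA-binding factors that carry them to their target genes, and the VGLL proteins are cofactors that bind TEAD proteins in their place. The data described here are the transcripts of 10 such genes, Yap1, Wwtr1 (which encodes TAZ), Tead1, Tead2, Tead3, Tead4, Vgll2, Vgll3, Vgll4 and the kinase gene Lats2. The genes were taken by name after the gene identifiers of the deposited count table had been matched to GENCODE release M21, and all 10 were found among its 18951 genes. By the sample labels and protocols, the RNA came from heart cells of 1-day-old C57BL/6 mice. These cells had been cultured, transfected and collected after 48 h. The transcripts of the si-Control libraries went against this description, as given below. Of the 6 libraries, 3 carry the label si-Rbm22, for an siRNA that targets the spliceosome gene Rbm22, and 3 the label si-Control, for a scrambled siRNA. The protocols describe primary cardiomyocytes checked by staining for cardiac troponin T, and the 3 samples of a group are called biological replicates there without saying whether each came from its own isolation. P-values therefore measure the spread between these samples.

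In the Hippo pathway, the kinases STK3 and STK4, with the scaffold SAV1, activate LATS1 and LATS2, which act with MOB1 proteins. LATS kinases phosphorylate YAP and TAZ, which holds them in the cytoplasm or marks them for breakdown. Unphosphorylated YAP and TAZ enter the nucleus and bind TEAD proteins. In the mouse heart, YAP is known for driving the division of fetal and neonatal cardiomyocytes, and TEAD proteins for binding the MCAT element of muscle genes. Read counts give the mRNA of these factors and not their phosphorylation, their place in the cell or their activity.

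Library totals lay between 36860678 and 37344860 reads for si-Rbm22 and between 34269042 and 35955301 reads for si-Control. Rbm22 had 533, 466 and 491 reads in the si-Rbm22 libraries and 798, 916 and 774 reads in the si-Control libraries, which put the si-Rbm22 mean at 58.3% of the si-Control mean (edgeR adjusted p = 4.22e-06). Transcripts in the si-Control libraries went against the cell type on their labels. The summed level of 12 cardiomyocyte markers was 24147 to 37967 CPM (reads scaled to a common library total with TMM factors) in si-Rbm22 and 46.6 to 52.6 CPM in si-Control, and 6 of them (Myl2, Myl3, Myl7, Nppa, Pln and Mybpc3) had no read in any si-Control library. The 10 skeletal myoblast markers summed to 3.09 to 6.45 CPM in si-Rbm22, where Myod1, Myf5, Cdh15 and Cacng1 had no read, and to 683.1 to 702.4 CPM in si-Control. Fibroblast markers summed to 5627 to 5808 CPM in si-Rbm22 and 21766 to 23621 CPM in si-Control. Of these 10 markers 2 were higher in si-Rbm22, 7 were lower and 1 did not pass, and Tcf21 had no read in any si-Control library. Smooth muscle and pericyte markers summed to 2034 to 2562 CPM in si-Rbm22 and 3173 to 3225 CPM in si-Control, although 4 of the 7 were higher in si-Rbm22 and 3 lower, with a median of 1.96 on the log2 scale. Markers of endothelium (291.2 to 336.9 CPM in si-Rbm22, 4.49 to 5.68 CPM in si-Control), epicardium (2365 to 2596 CPM in si-Rbm22, 50.2 to 53.7 CPM in si-Control), macrophages (71.3 to 83.2 CPM in si-Rbm22, 1.74 to 3.11 CPM in si-Control) and Schwann cells (86.2 to 95.4 CPM in si-Rbm22, 1.79 to 2.09 CPM in si-Control) were higher in si-Rbm22. All of these moved together with the groups compared below. Their part in the results was not tested, and the siRNA and the cell content of the cultures cannot be told apart.

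Of the 10 genes, 5 were higher in si-Rbm22 (Yap1, Tead1, Tead2, Vgll3 and Lats2), 3 were lower (Tead3, Vgll4 and Vgll2) and 2 did not pass the test (Wwtr1 and Tead4). The test was edgeR's quasi-likelihood test over all 14621 genes with enough reads, with a Benjamini-Hochberg adjusted p under 0.05. The 8 genes past it stood beside 82.0% of all genes tested, 43.1% higher and 38.9% lower, so the number of calls among these factors was near the background of the data set. In a bulk sample, fewer cells of a type and less RNA per cell cannot be told apart. The CPM ranges of the groups did not overlap for 9 of the 10 genes, beside 84.2% of all genes tested. The changes ran from a gain of 2.11 (Lats2) to a loss of 6.07 (Vgll2) on the log2 scale, against a median of 0.05 over all genes tested. The value of Vgll2 is not a stable size, since it was -7.92 without si-Rbm22 replicate 3, which held its only read in that group.

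**Figure D1:**
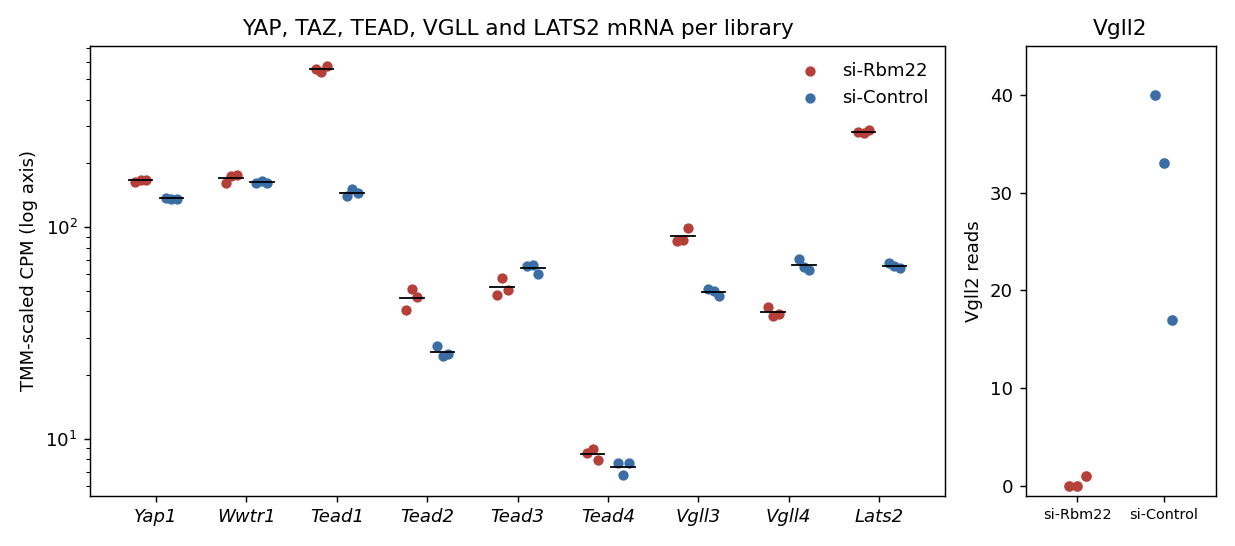
Level of 9 genes in each library as TMM-scaled CPM on a log axis (points, with a bar at the mean of 3 libraries) and, at the right, the reads of Vgll2 in each library. The ranges of the groups overlap only for Wwtr1 among the genes shown, though those of Tead3 and Tead4 nearly meet. The widest gaps on the log axis are those of Tead1 and Lats2.

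TEAD proteins bind GGAATG and its reverse complement CATTCC, and the 250 bases before each RefSeq transcript start (GRCm38.p6) were searched for both. RefSeq windows were at hand for 8 of the 10 genes, Tead1 and Tead4 being the others, and 5 of the 8 held a match, beside 14.4% of the 27025 genes with a window. Matches on both strands did not overlap in the windows printed. The 5 windows are shown because they belong to genes that encode TEAD proteins or their partners, with the matches in capitals. They lie at chr9:8004597-8004846, minus strand (Yap1), chr3:57575911-57576160, minus strand (Wwtr1), chr17:28350806-28351055, minus strand (Tead3), chr16:65814939-65815188, plus strand (Vgll3) and chr6:114969204-114969453, minus strand (Vgll4), and each is written 5′ to 3′ on the strand of its gene.
Yap1: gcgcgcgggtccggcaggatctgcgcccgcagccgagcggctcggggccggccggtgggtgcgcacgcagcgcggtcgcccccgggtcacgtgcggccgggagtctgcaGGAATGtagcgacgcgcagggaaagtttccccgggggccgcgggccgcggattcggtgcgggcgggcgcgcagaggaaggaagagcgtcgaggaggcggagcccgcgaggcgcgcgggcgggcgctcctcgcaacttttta
Wwtr1: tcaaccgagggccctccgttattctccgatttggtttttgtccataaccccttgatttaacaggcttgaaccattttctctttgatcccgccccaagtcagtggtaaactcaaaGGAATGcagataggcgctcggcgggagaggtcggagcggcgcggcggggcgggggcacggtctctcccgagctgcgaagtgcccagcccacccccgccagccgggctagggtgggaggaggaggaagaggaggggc
Tead3: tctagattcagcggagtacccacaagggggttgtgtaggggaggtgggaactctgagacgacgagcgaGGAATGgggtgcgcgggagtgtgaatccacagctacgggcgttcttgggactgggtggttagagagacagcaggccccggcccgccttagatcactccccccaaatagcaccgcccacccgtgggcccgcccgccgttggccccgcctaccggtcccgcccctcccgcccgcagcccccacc
Vgll3: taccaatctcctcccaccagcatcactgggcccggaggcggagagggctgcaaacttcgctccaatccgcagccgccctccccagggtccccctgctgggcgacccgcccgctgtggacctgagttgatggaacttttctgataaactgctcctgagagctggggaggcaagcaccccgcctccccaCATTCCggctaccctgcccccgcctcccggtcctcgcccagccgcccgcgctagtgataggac
Vgll4: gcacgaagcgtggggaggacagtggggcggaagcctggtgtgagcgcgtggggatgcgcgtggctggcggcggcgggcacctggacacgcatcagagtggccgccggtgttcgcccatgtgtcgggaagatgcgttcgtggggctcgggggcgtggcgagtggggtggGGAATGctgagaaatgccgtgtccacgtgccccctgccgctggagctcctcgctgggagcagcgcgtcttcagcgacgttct
The match began 141 bases before the start in Yap1, 136 in Wwtr1, 182 in Tead3, 63 in Vgll3 and 82 in Vgll4. The same Wwtr1 match lay 170 bases before a second start. A downstream start of Tead3, not printed, had a pair of matches at 123 and 114 bases, and no match was found in the windows of Tead2, Vgll2 and Lats2. The 5 genes with a match did not move together: Yap1 and Vgll3 were higher in si-Rbm22, Tead3 and Vgll4 were lower, and Wwtr1 did not pass.

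The coactivator genes differed little between the groups. Yap1 (ENSMUSG00000053110; GRCm38 chromosome 9, 7931999 to 8004596, minus strand) was at 164, 167 and 167 CPM in si-Rbm22 and at 138, 136 and 136 CPM in si-Control. The groups did not overlap, and each replicate lay within a few CPM of the others. The difference was 1.22-fold (log2 fold change 0.28 with an SE of 0.051; adjusted p = 0.000149, edgeR). Wwtr1 (ENSMUSG00000027803; chromosome 3, 57455649 to 57575910, minus strand) was at 162, 175 and 176 CPM in si-Rbm22 and at 162, 165 and 162 CPM in si-Control. These ranges overlapped, and the log2 fold change of 0.07 had a 95% interval of -0.05 to 0.19 (edgeR adjusted p = 0.253). Under the TMM scaling used here, changes of a size inside that interval, including none, remain compatible with these counts. In TPM, which corrects for the length of the merged exons and so allows genes to be compared, Wwtr1 averaged 125 ± 7.10 TPM in si-Rbm22 and 124 ± 2.44 TPM in si-Control (SD, n = 3 each), above 91.4% of the tested genes in si-Rbm22 and 90.1% in si-Control. Yap1 averaged 62.5 ± 1.74 TPM in si-Rbm22 and 53.4 ± 0.740 TPM in si-Control. Yap1 made up 34.3%, 33.1% and 32.8% of the Yap1 and Wwtr1 sum in si-Rbm22 and 30.5%, 29.9% and 30.1% in si-Control. In TPM, Wwtr1 was thus the larger part of this pair in all 6 libraries. Before the length correction, si-Rbm22 replicate 1 held more Yap1 reads (6009) than Wwtr1 reads (5946), and the other libraries held more Wwtr1 reads.

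The TEAD genes differed widely from each other. Tead1 (ENSMUSG00000055320; chromosome 7, 112679318 to 112906807, plus strand), which encodes the TEAD protein best known from heart muscle, was at 558, 540 and 575 CPM in si-Rbm22 and at 140, 151 and 144 CPM in si-Control. The lowest si-Rbm22 library was far above the highest si-Control library, and the difference was 3.84-fold (1.94 on the log2 scale, SE 0.058; adjusted p = 8.16e-13, edgeR). Among all genes tested, 26.6% differed by more than Tead1 in either direction.

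Tead2 (ENSMUSG00000030796; chromosome 7, 45215753 to 45233644, plus strand), a paralog known from the early embryo, was at 40.5, 50.8 and 46.9 CPM in si-Rbm22 and at 27.5, 24.6 and 25.1 CPM in si-Control. It was higher in all 3 si-Rbm22 libraries, though they varied more among themselves than for Tead1 (coefficient of variation 11.3%, against 3.12% for Tead1). The log2 fold change was 0.84 (SE 0.089, edgeR adjusted p = 7.66e-07). Tead3 (ENSMUSG00000002249; chromosome 17, 28331671 to 28350817, minus strand) went the other way, with 47.7, 57.8 and 50.2 CPM in si-Rbm22 and 65.3, 66.1 and 60.01 CPM in si-Control. The groups did not overlap, though the highest si-Rbm22 library came close to the lowest si-Control library (log2 fold change -0.30 with an SE of 0.077; adjusted p = 0.00246, edgeR). Tead4 (ENSMUSG00000030353; chromosome 6, 128224288 to 128300823, minus strand), the paralog linked with skeletal myoblasts and the trophectoderm, was the lowest of the TEAD genes. It had 8.55, 8.92 and 7.96 CPM in si-Rbm22 and 7.64, 6.72 and 7.72 CPM in si-Control. The ranges did not overlap, yet the difference did not pass the test (log2 fold change 0.20, 95% interval -0.09 to 0.49, edgeR adjusted p = 0.176). The skeletal myoblast markers differed between the same libraries by the amounts given above.

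**Figure D2:**
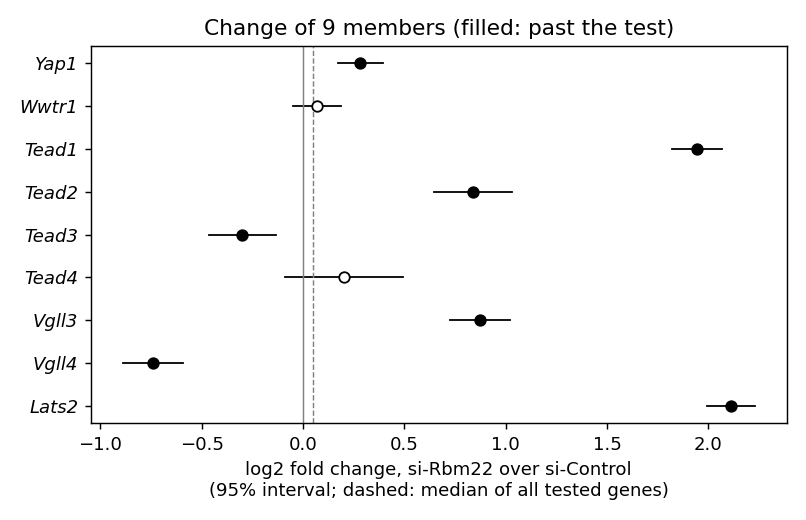
Log2 fold change of 9 genes (si-Rbm22 over si-Control, points) with 95% intervals; filled points passed the test, the dashed line marks the median of all tested genes at 0.05, and Vgll2 (-6.07) is left off the axis. Lats2 and Tead1 stand apart at the right, and only the intervals of Wwtr1 and Tead4 include 0.

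The make-up of the TEAD family shifted towards Tead1. In si-Rbm22, Tead1 supplied 69.6%, 64.7% and 68.5% of the TEAD sum in TPM, and in si-Control 36.9%, 39.7% and 39.4%. Tead3 supplied 12.02%, 14.0% and 12.1% in si-Rbm22 and 34.8%, 35.2% and 33.1% in si-Control, where it was almost level with Tead1. Tead2 had a mean share of 15.8% in si-Rbm22 and 19.5% in si-Control, although its own level was higher in si-Rbm22. Tead4 had 3.88% in si-Rbm22 and 7.42% in si-Control, although its own level did not pass the test. Shares within a family are tied, so a larger share of Tead1 leaves smaller shares for the others. For none of the 4 genes did the shares of the groups overlap. Over all genes tested, the CPM ranges did not overlap for 84.2%. The TEAD sum was 204.6, 209.2 and 221.0 TPM in si-Rbm22 and 100.9, 102.4 and 96.9 TPM in si-Control, whereas the Yap1 and Wwtr1 sum was 179.1, 186.2 and 196.4 TPM in si-Rbm22 and 176.4, 180.4 and 174.6 TPM in si-Control. Per library, this gave 1.142, 1.123 and 1.125 TEAD transcripts for each Yap1 or Wwtr1 transcript in si-Rbm22 and 0.572, 0.567 and 0.555 in si-Control. This ratio is formed within a library and so does not depend on the scaling between libraries. It does depend on the merged exon lengths, and other lengths were not tried for it. Shares and ratios are given as a description, and no test of them was made.

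**Figure D3:**
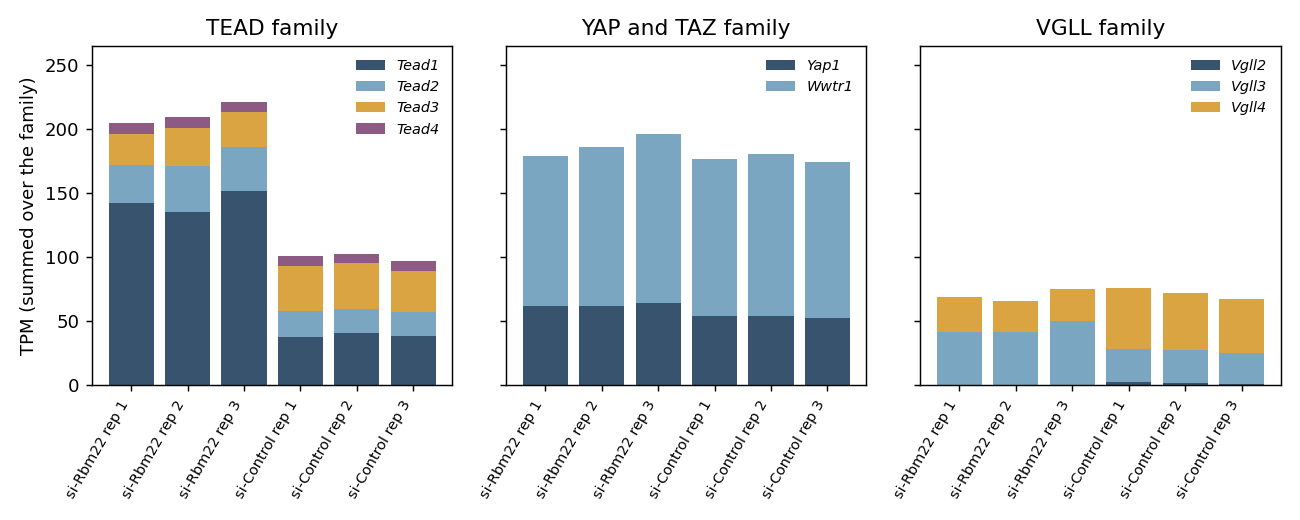
TPM of the TEAD, YAP and TAZ, and VGLL genes stacked in each of the 6 libraries. The TEAD bars are about 205 to 221 TPM high in si-Rbm22 and 97 to 102 TPM in si-Control, with Tead1 the largest piece in si-Rbm22, while the bars of both other families keep a similar height and Vgll3 and Vgll4 change places.

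The VGLL genes, whose products bind TEAD proteins, split. Vgll3 (ENSMUSG00000091243; chromosome 16, 65815257 to 65866368, plus strand) was at 85.7, 87.3 and 98.8 CPM in si-Rbm22 and at 51.2, 49.8 and 47.4 CPM in si-Control, higher by 0.87 on the log2 scale (SE 0.068; adjusted p = 2.75e-08, edgeR). Every si-Rbm22 library was above every si-Control library. Vgll4 (ENSMUSG00000030315; chromosome 6, 114860628 to 114969994, minus strand), which encodes a repressor that competes with YAP for TEAD, was at 41.9, 37.9 and 38.8 CPM in si-Rbm22 and at 70.6, 64.7 and 63.0 CPM in si-Control. It was lower in all 3 si-Rbm22 libraries (log2 fold change -0.74 with an SE of 0.069; adjusted p = 1.86e-07, edgeR). Vgll2 (ENSMUSG00000049641; chromosome 10, 52022502 to 52028471, plus strand), a cofactor of skeletal muscle, had 0, 0 and 1 reads in si-Rbm22 and 40, 33 and 17 reads in si-Control. It was thus a rare transcript even where it was found, with a mean of 1.83 TPM in si-Control. The ratio of si-Rbm22 to si-Control was 0.0108 with a 95% counting interval of 0.000271 to 0.0618 (edgeR adjusted p = 1.26e-05). The skeletal myoblast markers were lower too, 9 of 9 tested, beside 38.9% of all genes tested. A relation of Vgll2 to these markers was not tested.

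The VGLL sum overlapped between the groups, with 68.7, 65.8 and 75.5 TPM in si-Rbm22 and 75.7, 71.6 and 67.0 TPM in si-Control. Its make-up did not. Vgll3 was 60.8%, 63.6% and 65.9% of the sum in si-Rbm22 and 34.4%, 35.9% and 35.8% in si-Control, and Vgll4 was 39.2%, 36.4% and 34.1% in si-Rbm22 and 62.4%, 61.3% and 62.6% in si-Control. For each transcript of a TEAD gene there were 0.3358, 0.3143 and 0.3415 VGLL transcripts in si-Rbm22 and 0.751, 0.699 and 0.692 in si-Control. These ratios also depend on the merged exon lengths. Vgll1 was not analysed here.

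Lats2 (ENSMUSG00000021959; chromosome 14, 57689662 to 57758388, minus strand), which encodes a kinase that inactivates YAP and TAZ and is itself a YAP target gene, had the largest gain of the 10. It was at 281, 279 and 288 CPM in si-Rbm22 and at 67.4, 65.3 and 63.8 CPM in si-Control (log2 fold change 2.11 with an SE of 0.055; adjusted p = 2.24e-13, edgeR). The groups lay far apart and the replicates were close, with coefficients of variation of 1.74% in si-Rbm22 and 2.71% in si-Control. Its paralog Lats1 was at 76.3, 71.4 and 76.2 CPM in si-Rbm22 and at 75.3, 81.9 and 72.9 CPM in si-Control, with overlapping ranges and a log2 fold change of -0.04 (95% interval -0.17 to 0.10, edgeR adjusted p = 0.570). Lats2 was therefore 79.9% ± 0.462 of the LATS sum in TPM in si-Rbm22 and 47.2% ± 1.54 in si-Control (SD, n = 3 each). Its count carries a limit of annotation, since 41.2% of the 50-base words of its GENCODE transcripts also occur in Gm49361, an overlapping gene on the same strand that has no row in the table. The other 9 genes shared at most 1.35% of such words with any other gene, and the only words shared among the 10 were 10 between Tead3 and Tead4, so few reads of the TEAD genes lie in stretches shared with a paralog.

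Ordered by TPM, the genes stood differently in the groups. In si-Rbm22, Tead1 (143 TPM) and Lats2 (141 TPM) came first with overlapping ranges, followed by Wwtr1, Yap1 (62.5 TPM), Vgll3 (44.5 TPM) and Tead2 (33.5 TPM). Tead3 (26.9 TPM) and Vgll4 (25.5 TPM) overlapped next, and Tead4 (8.19 TPM) and Vgll2 (0.0192 TPM) came last. In si-Control, Wwtr1 (124 TPM) and Yap1 (53.4 TPM) led, followed by Vgll4 (44.4 TPM) and Tead1 (38.7 TPM). Tead3 (34.4 TPM) and Lats2 (34.03 TPM) overlapped there, before Vgll3 (25.2 TPM), Tead2 (19.5 TPM), Tead4 (7.41 TPM) and Vgll2. Tead1 exceeded 92.7% of the tested genes in si-Rbm22 and 68.4% in si-Control, while Tead4 exceeded 33.0% in si-Rbm22 and 33.5% in si-Control.

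The genes closest to each factor over the 6 libraries were found by the Euclidean distance between log2 CPM profiles, each centred on its own mean, among named genes of at least 5 CPM. With 6 libraries in 2 groups, this measure mostly matches the size of the group difference. Nearest to Tead1 was Add3, which encodes an adducin of the membrane skeleton, at a distance of 0.05 (178.5 ± 5.03 CPM in si-Rbm22 and 45.8 ± 2.65 CPM in si-Control, SD, n = 3 each), and then Baiap2l1. Nearest to Lats2 were Zfp422 (45.1 ± 0.981 CPM in si-Rbm22 and 10.8 ± 0.530 CPM in si-Control) and Flrt2. Nearest to Yap1 were Slc2a1, the glucose transporter gene, and Nfx1. Wwtr1 was closest to Zfp771 and Socs5, Tead2 to Spry2 and Mcts2, Tead3 to Rybp and Mcoln1, Tead4 to Rita1 and Ttc27, Vgll3 to Stim1 and Gng12, and Vgll4 to Oaz1 and Dnajb2. For Vgll2 the nearest profiles, Zfp503 and Foxred2, were still 0.75 and 0.77 away. Their log2 fold changes were -3.59 (Zfp503) and -3.9 (Foxred2), against -6.07 for Vgll2. The profiles used a prior count of 2, which damps the difference of a gene with so few reads. Vgll2 itself lay below the level asked of its neighbours.

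Among 20 genes of the kinase core and its activators, 11 were higher in si-Rbm22, 7 were lower and 2 did not pass, and the median was 0.30 on the log2 scale. The MOB1 genes, whose products are partners of the LATS kinases, went opposite ways. Mob1b was at 97.7 ± 1.82 CPM in si-Rbm22 and 23.9 ± 1.55 CPM in si-Control, and Mob1a at 109 ± 11.9 CPM in si-Rbm22 and 223 ± 5.76 CPM in si-Control (SD, n = 3 each). Wwc1, which encodes the LATS activator KIBRA, had 2128, 2289 and 2230 reads in si-Rbm22 and 27, 46 and 29 reads in si-Control (log2 fold change 5.98 with an SE of 0.134; adjusted p = 4.39e-14, edgeR), and its paralog Wwc2 rose by 1.81 on the log2 scale (SE 0.054). Of the STK pair, chosen for mention after its values were seen, Stk4 was higher (log2 fold change 1.06) and Stk3 lower (log2 fold change -0.35). The MAP4K and TAO kinases, which can phosphorylate LATS directly, were 5 higher and 4 lower of 9. Over all genes tested, 82.0% passed, 43.1% of them all being higher and 38.9% lower. Mink1 fell by 1.54 and Map4k2 by 1.11 on the log2 scale.

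Among 33 other regulators of the pathway, 15 were higher, 14 lower and 4 did not pass (median log2 fold change -0.07). The list covers junctions, polarity complexes and the STRIPAK phosphatase complex. It also holds Rassf1, Rassf5, Csnk1d, Csnk1e, Btrc, Ywhab and Ywhae. Of this list 87.9% passed, beside 82.0% of all genes tested, where 43.1% were higher and 38.9% lower. STRIPAK removes the activating phosphate from STK3 and STK4. Strn, a scaffold of that complex, was at 142 ± 3.22 CPM in si-Rbm22 and 40.8 ± 0.817 CPM in si-Control. The large cadherin genes split, with Fat1 at 682 ± 31.7 CPM in si-Rbm22 and 269 ± 5.68 CPM in si-Control, and Fat4 at 16.5 ± 0.583 CPM in si-Rbm22 and 87.2 ± 4.08 CPM in si-Control. Dchs2, a Dachsous cadherin gene, fell by 1.91 and Llgl1, a polarity gene, by 1.19 on the log2 scale. Dchs1, the other Dachsous gene of the list, was higher by 1.49. Crb2, an apical polarity gene, had 4714, 4492 and 5014 reads in si-Rbm22 and 0, 1 and 1 reads in si-Control, a ratio of 6920 with a 95% counting interval of 1915 to 57143. The count by role given above for the MAP4K and TAO kinases was read from its list after the values were known.

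Genes widely used as YAP and TEAD targets, mostly from human cell lines and tumours, did not move one way. Of 24, 12 were higher in si-Rbm22, 10 were lower and 2 did not pass. The median was 0.12 on the log2 scale, and Lats2 is counted among the 12. Amotl2, Ajuba, Fjx1 and Ptpn14 are also in the list of regulators above. Ccn2, which encodes a matricellular growth factor, had 29174, 33055 and 39419 reads in si-Rbm22 and 893, 889 and 880 reads in si-Control (log2 fold change 5.21 with an SE of 0.103; adjusted p = 2.78e-13, edgeR). Ankrd1, which encodes a nuclear and sarcomeric protein of stretched heart muscle, was at 2285 ± 102.7 CPM in si-Rbm22 and 189 ± 11.5 CPM in si-Control (SD, n = 3 each; log2 fold change 3.59, SE 0.069). Ccn1, the close relative of Ccn2, was at 718 ± 87.4 CPM in si-Rbm22 and 442 ± 14.3 CPM in si-Control, a log2 fold change of 0.70 (SE 0.077). On the other side, Igfbp3, an IGF carrier gene, was at 145 ± 8.37 CPM in si-Rbm22 and 582.5 ± 21.5 CPM in si-Control. The growth factor gene Tgfb2 fell by 1.98 on the log2 scale. Foxf2, a transcription factor gene of mesenchyme, had 24, 19 and 30 reads in si-Rbm22 and 836, 794 and 725 reads in si-Control. The share of each of these 3 lists that passed the test (90.0% of the kinase core, 87.9% of the regulators and 91.7% of the targets) was read beside the 82.0% of all genes.

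The same search was made in the target genes. Of 24 targets, 17 had a window and 7 of these held a match (Axl, Ajuba, Crim1, Ankrd1, Ptpn14, Ccn1 and Amotl2). The targets without a window were Ccn2 and Arhgef17 (higher), Asap1, Dock5 and Ccdc80 (lower), and Fjx1 and Nuak2 (not past the test). The split below leaves them out. All 7 were higher in si-Rbm22, and their median was 0.70 on the log2 scale. Of the 10 without a match, 3 were higher (Lats2, Nt5e and Rbms3) and 7 were lower (Gadd45b, Birc5, Igfbp3, F3, Foxf2, Tgfb2 and Myof), with a median of -0.88. Over all tested genes with a window the same split was slight, with 48.5% of 1488 genes with a match higher and 34.9% lower, and 42.7% of 9686 genes without a match higher and 38.8% lower. The comparison was made after the values were known and is a description without a test. The matched sites of 4 of the targets are shown with 12 bases on each side, from the strand of the gene, at chr19:36120037-36120066 and chr19:36119950-36119979 (Ankrd1), chr17:78200157-78200186 (Crim1), chr14:54577830-54577859 and chr14:54577808-54577837 (Ajuba) and chr3:145650071-145650100 (Ccn1).
Ankrd1, 210 bases before the start: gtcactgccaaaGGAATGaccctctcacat
Ankrd1, 123 bases before the start: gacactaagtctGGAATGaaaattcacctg
Crim1, 79 bases before the start: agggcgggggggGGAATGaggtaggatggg
Ajuba, 186 bases before the start: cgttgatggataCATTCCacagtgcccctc
Ajuba, 164 bases before the start: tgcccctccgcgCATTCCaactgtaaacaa
Ccn1, 103 bases before the start: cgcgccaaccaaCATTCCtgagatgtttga
Ankrd1 is also a gene of the cardiomyocyte, and Crim1 was at 316 ± 19.8 CPM in si-Rbm22 and 55.0 ± 3.75 CPM in si-Control (SD, n = 3 each). Ajuba was at 186 ± 4.45 CPM in si-Rbm22 and 94.9 ± 3.76 CPM in si-Control. A match of letters is neither a bound site nor a cause, and the windows leave out more distant enhancers.

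**Figure D4:**
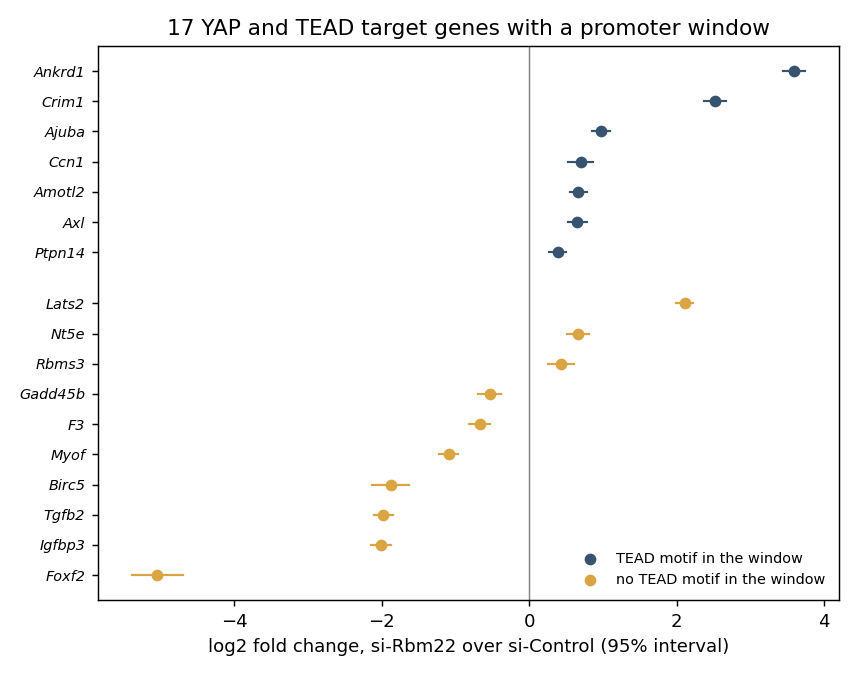
Log2 fold change (si-Rbm22 over si-Control, with 95% intervals) of the 17 target genes with a promoter window, those with GGAATG or CATTCC in the 250 bases before the start above those without. All 7 genes of the upper block lie right of 0, and the 10 of the lower block lie on both sides.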

How the data were processed

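The authors deposited 1 table of raw counts (whole reads for each Ensembl gene, not normalized) for the 6 libraries. HISAT2, HTSeq, fastp, DESeq2 and the build GRCm38 are named, per the submitters' processing notes. For the strand setting and the annotation release these sources give nothing. Of 18951 identifiers, 18856 matched GENCODE M21. Groups came from the sample titles. Counts were tested with edgeR 4.0.16 in R 4.3.3 (quasi-likelihood, TMM, filterByExpr, robust, group as the only term). Benjamini-Hochberg adjustment was made over 14621 genes with a threshold of 0.05. The procedure was tested on simulated data in which few genes were changed. Most genes differed in the real data, so that simulation does not vouch for the scaling used here. The SE is the absolute log2 fold change over the square root of the F statistic. CPM is TMM-scaled. TPM used merged exon lengths from M21. Counting intervals (95%, exact) hold for counting error alone, because PCR copies of a molecule are not told apart in this table. No 2 libraries of a group agreed within sampling noise (chi-square per degree of freedom 4.52 to 30.9).

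The genes and lists were chosen with earlier results of these data known. Named genes were the 10 factors, the 3 smallest p in each direction of each list, and the 2 nearest profiles of each factor; other genes of the lists, such as Stk3, Stk4, Ccn1, Crim1 and Ajuba, were picked after their values were seen. Alternatives were RLE factors, other filters, each library left out, a block for the replicate number, limma-voom (limma 3.58.1), DESeq2 1.42.0, mitochondrial transcripts left out, other lengths for the shares and, added after the data were seen, library totals without TMM.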

Additional observations from a re-analysis of the deposited data

How the results depend on the processing

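All 10 factors kept their direction and their side of the threshold in the alternatives that could be fitted, which were 14 for 8 of them and 13 for Tead4 and Vgll2, since these last fell below 10 CPM and were not tested under that filter. Over these alternatives the log2 fold change lay between 0.25 and 0.32 for Yap1, 0.04 and 0.11 for Wwtr1, 1.91 and 1.98 for Tead1, -0.39 and -0.25 for Tead3, and -7.92 (without si-Rbm22 replicate 3) and -5.36 (limma-voom) for Vgll2. The count of genes called ranged from 8772 of 10497 tested (83.6%, at least 10 CPM in 3 libraries) to 13057 of 18951 tested (68.9%, no filter), so the background share of 82.0% depends on the filter. Replicate numbers did not pair the samples, with correlations of deviations of -0.016, 0.007 and 0.008 for equal numbers, and with the number as a block 11945 genes, 8 factors, 18 kinase core genes, 30 regulators and 22 targets were called. The change in a paralog's share depended on the length used: with the longest transcript it was -2.12 percentage points for Tead2, -25.8 for Tead3, -2.41 for Tead4, -1.31 for Vgll2, 23.0 for Vgll3, -21.7 for Vgll4, -29.8 for Lats1 and 29.8 for Lats2, against -3.68 (Tead2), -21.7 (Tead3), -3.54 (Tead4), -2.51 (Vgll2), 28.1 (Vgll3), -25.6 (Vgll4), -32.6 (Lats1) and 32.6 (Lats2) with merged exons. Without a length correction it was 24.04 for Tead1, -18.5 for Tead3, -1.77 for Tead4 and -0.703 for Vgll2, where merged exons gave 28.9 for Tead1. None of the 11 shares changed direction with these lengths or with a library left out. Depth limits Vgll2, which rests on 1 read in si-Rbm22 and 90 in si-Control.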
